A study of Mus musculus with 2 samples.

Results

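Homeostatic microglia without state markers were the cells of the count table that kept the surveillant marker P2ry12 and stayed below set limits of the transcripts that mark activated states in the sorted population. Several limits lay above 0, so members could hold some counts of these genes. A cell was taken as a member when it had at least 2000 counts (unique transcript molecules) in total, at least 5 of P2ry12, fewer than 20 of Apoe, none of Cst7, Lpl, Spp1 and Itgax together, and fewer than 3 of the interferon genes Ifit1, Ifit2, Ifit3, Isg15, Irf7, Usp18 and Rsad2 together. It also had no count of the mitotic genes Mki67 and Top2a, fewer than 10 of the MHC class II genes Cd74, H2-Aa, H2-Ab1 and H2-Eb1, fewer than 15 of the chemokines Ccl3 and Ccl4, and fewer than 100 of Ttr, a transcript of the choroid plexus. These 9 criteria were met by 23035 of 42766 cells. All cells came from PSAPP mice, which carry the amyloid transgenes APPswe/PS1δE9, so both groups shared the same genotype. The vehicle (VEH) group and the lemborexant (LEM) group, the second given the dual orexin receptor antagonist at 30 mg/kg/day, were gavaged each day for 30 days, from 9 to 10 months of age. Live CD45lo CD11b+ cells of cortex and hippocampus were sorted, and each treatment gave 1 10x library, a pool of 5 animals, females and males together. With 1 library per treatment no test was possible, so intervals below cover counting error only, and LEM cannot be told apart from any other difference between the pools of mice.

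Microglia are the resident macrophages of the brain. In the unperturbed state they keep a set of receptors with which they survey the tissue: the purinergic receptor P2ry12 senses nucleotides released by injured cells, Cx3cr1 binds the neuronal chemokine fractalkine, and Csf1r binds the growth factors on which the cells depend for survival. Signals of the TGF-β family and transcription factors such as Spi1 (PU.1), Sall1 and Mef2c maintain this state. Around amyloid plaques, microglia reduce the homeostatic set and turn on Apoe, lysosomal genes and later Cst7, Lpl, Spp1 and Itgax, a sequence called disease-associated microglia (DAM).

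Upstream sequences of 3 markers are printed because the homeostatic state is defined by such genes: P2ry12 chose the cells, Cx3cr1 was a marker that the rule left out, and Fcrls was, of the 11 microglial markers, the one farthest apart between the libraries. Each is the 250 bases before the RefSeq transcript start in the mouse build GRCm38.p6, in the direction of the gene, with AGGAAG, a core sequence of ETS factors such as PU.1, or its reverse complement in capitals. P2ry12 is on the minus strand at chr3:59262986-59263235, Cx3cr1 on the minus strand at chr9:120068297-120068546 and Fcrls on the minus strand at chr3:87263525-87263774. The gene annotation GENCODE differs from RefSeq here, with Cx3cr1 reaching to 120069879 and Fcrls to 87263738. By GENCODE the Cx3cr1 window and most of the Fcrls window thus lie within the gene.
P2ry12: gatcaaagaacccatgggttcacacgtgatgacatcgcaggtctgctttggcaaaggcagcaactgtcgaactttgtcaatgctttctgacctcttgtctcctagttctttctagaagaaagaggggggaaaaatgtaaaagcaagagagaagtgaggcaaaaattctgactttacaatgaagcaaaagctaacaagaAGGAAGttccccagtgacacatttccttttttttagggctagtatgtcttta
Cx3cr1: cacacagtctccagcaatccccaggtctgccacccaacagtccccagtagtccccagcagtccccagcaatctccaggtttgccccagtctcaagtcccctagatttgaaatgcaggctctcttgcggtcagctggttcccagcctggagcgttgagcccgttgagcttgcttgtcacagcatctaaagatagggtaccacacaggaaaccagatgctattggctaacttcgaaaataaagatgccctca
Fcrls: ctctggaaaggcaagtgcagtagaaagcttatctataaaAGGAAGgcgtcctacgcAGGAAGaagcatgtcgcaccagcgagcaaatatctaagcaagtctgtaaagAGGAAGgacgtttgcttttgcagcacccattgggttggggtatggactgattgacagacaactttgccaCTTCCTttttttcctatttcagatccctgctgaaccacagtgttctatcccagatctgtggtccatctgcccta
The motif was searched on both strands of each window. It was found 1 time in the window of P2ry12, 4 times in that of Fcrls and not in that of Cx3cr1. Of 32851 promoter windows of the same length, 29.5% held it, so its presence is common. Of the 11 microglial markers, 7 had a window in the table, 9 windows in all, and 4 of these 7 held the motif in at least 1 window. This counts genes, whereas the 29.5% counts windows. The longer form GAGGAAGT was in 2.44% of all windows and in none of the markers' windows.

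The summed counts of the members were 64462560 in VEH and 73879623 in LEM, with a median of 5786 and 5619 counts and 2525 and 2509 genes per cell. The other cells of at least 2000 counts were deeper, at medians of 7143 and 7096. Cells were assigned to female or male mice by Xist and by the Y-linked genes Ddx3y, Eif2s3y, Kdm5d and Uty. Among the members this gave 3586 female and 5311 male cells in VEH, and 5012 female and 5483 male cells in LEM. Droplets with counts of both kinds, which may hold 2 cells, were 4.43% of the members in VEH and 5.39% in LEM. Because female and male cells of a library came from different mice under 1 treatment, their difference shows how far groups of mice differ without any difference in drug, with sex and mouse not separable.

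The label was checked against markers. Tmem119 (2252 counts per 1000000, CPM, in VEH and 2309 in LEM) and Cx3cr1 (3317 and 3352 CPM), which the rule did not read, were both abundant in the members. Without P2ry12, which the rule required, the other 10 microglial markers summed to 45374 CPM in VEH and 46732 in LEM, and none was at 0. Most markers of other cell types were near 0. Without Ttr, which the rule limited, the other 10 choroid plexus markers summed to 0.450 and 0.636 CPM in the members, against 85.4 and 197 CPM in the other cells, with 3 markers at 0 in the members of each library. The 10 markers of border-associated macrophages summed to 10.9 and 9.84 CPM (3 at 0), and most of that was Folr2 at 8 and 7.81 CPM. Monocyte markers summed to 7.21 and 7.92 CPM, neuronal markers to 1.24 and 1.6 CPM, and T and NK cell markers to 0.0931 and 0.149 CPM. Astrocyte markers summed to 4.90 and 5.92 CPM, with 9 of 10 below 1 CPM in each library. Endothelial and pericyte markers summed to 19.8 and 15.6 CPM (18.6 and 16.1 CPM in the other cells), most of it Pecam1, and neutrophil markers to 0.217 and 0.325 CPM. Oligodendrocyte markers summed to 108 and 109 CPM and B cell markers to 111 CPM in each library, mostly Cnp and Ighm. Cnp was 49.4 and 46.8 CPM in the members and 48.2 and 47.8 CPM in the other cells, and Ighm was 96.3 and 99.5 CPM against 99.1 and 101.3 CPM, so both were about as high outside the members as inside. The cell names of the table held no barcodes, so barcodes shared by the libraries were not counted.

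Homeostatic cells made up a smaller share of the LEM library. They were 57.8% of cells in VEH (10620 of 18374, exact 95% interval 57.1 to 58.5%) and 50.9% in LEM (12415 of 24392, 50.3 to 51.5%), a log2 ratio of -0.18 (-0.22 to -0.15). Of cells with at least 2000 counts they were 62.2% and 53.6%. These shares describe what the rule counted. The ratio lay farther from 0 in male cells, at 58.8% in VEH and 48.9% in LEM (log2 ratio -0.27, -0.32 to -0.21), than in female cells, at 63.1% and 59.6% (-0.082, -0.14 to -0.02), though this difference between the sexes was not tested. The rule sets fixed limits on raw counts, and the part of depth in the shares was not tested. Among cells of 2000 to 4000 counts the share was 69.0% in VEH and 63.3% in LEM. Among cells of 4000 to 6000 counts the share was 74.1% in VEH and 68.4% in LEM. Among cells of 8000 to 12000 counts it was 45.9% and 32.3%, and among cells of 12000 to 20000 counts 26.6% and 16.7%. The LEM share was lower in each of the 5 depth ranges.

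**Figure D1:**
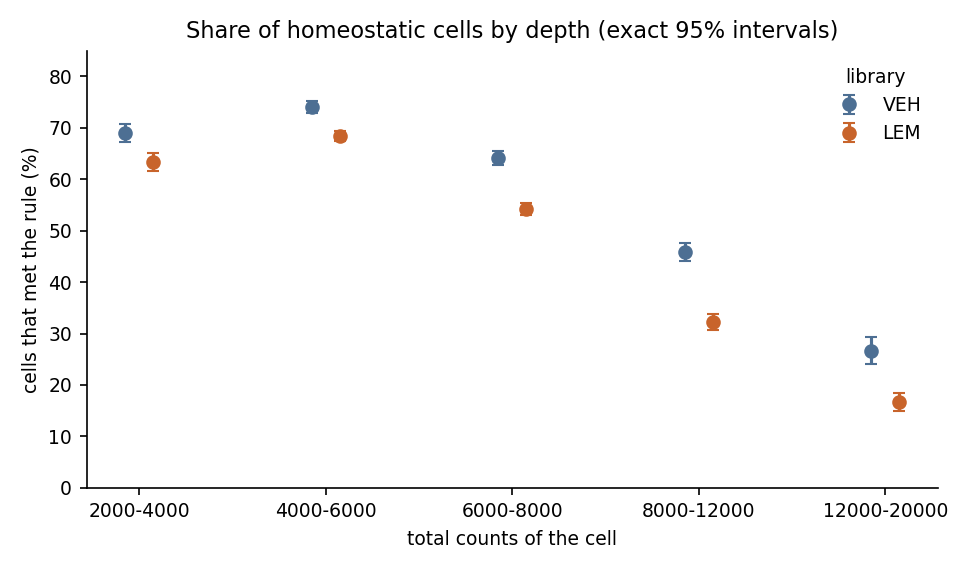
Share of cells that met the rule (y axis, percent) in 5 ranges of total counts per cell (x axis) for the VEH and LEM libraries, with exact 95% binomial intervals that cover counting error only. The share was 74.1% (VEH) and 68.4% (LEM) at 4000 to 6000 counts and 26.6% and 16.7% in the deepest range, with LEM below VEH in each range.

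In percentage points, the Apoe limit separated the libraries most. It was failed by 12.4% of cells in VEH and 21.8% in LEM, and it was the only failed criterion of 1038 and 2493 cells. The late DAM genes Cst7, Lpl, Spp1 and Itgax removed 17.8% and 22.0% of cells, the interferon genes 3.12% and 4.28%, and Mki67 and Top2a 1.16% and 1.3%. Ccl3 and Ccl4, with 11.3% and 11.5%, and the P2ry12 minimum, with 8.06% and 7.76%, removed similar shares of both libraries. MHC class II removed 3.05% and 2.51%, Ttr 0.267% and 0.586%, and the depth minimum 7.10% and 4.98%. Some edges of the rule had many cells on both sides, whereas others had few or none, such as MHC class II, with 8 members at 9 counts and 1 excluded cell at 10 in VEH and 11 and 4 in LEM, and Ttr, with 0 cells at 99 or 100. In VEH, 66 members had 19 counts of Apoe and 58 excluded cells, passing all else, had 20, and in LEM these numbers were 177 and 172. Within the limits, 52.8% of members in VEH and 34.5% in LEM had 0 counts of Apoe. For Ccl3 and Ccl4 together, 66.4% and 67.8% of members had 0. For P2ry12, 143 members in VEH had 5 counts and 138 excluded cells had 4, and in LEM 180 and 153. A single late DAM count was the whole reason for exclusion of 1121 cells in VEH and 1732 in LEM. At 14 and 15 counts of Ccl3 and Ccl4 there were 75 and 66 cells in VEH and 93 and 67 in LEM. For the interferon genes, 223 members had 2 counts and 78 excluded cells had 3 in VEH, against 321 and 107 in LEM. Without a limit on Apoe the shares were 63.4% and 61.1% (log2 ratio -0.054).

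Most homeostatic receptors were slightly higher in the members than in the rest of their library. Without P2ry12, which the rule read, 24 of 27 homeostatic receptors and surface proteins were above 0 on the log2 scale (members over other cells) in VEH and 25 in LEM, with medians of 0.20 and 0.22, beside medians of 0.06 and 0.07 over all 8051 genes tested. Over all genes, 64% were above 0 in both libraries. Of all genes, 0% were at least 2-fold higher in the members in both libraries and 0.435% (35 genes) at least 2-fold lower, of which 10 were genes of the rule and 25 were not. A gene entered when 10% of cells of any group held it, and 19 of these 25 reached that only in the other cells, where they were high, so their direction came with the filter and only 6 were detected in the members themselves. These ratios describe cells chosen on their counts and were not tested. P2ry12, which the rule read, was 4688 CPM in the members and 3803 CPM in the other cells of VEH, and 4533 and 3764 CPM in LEM (0.30 and 0.27). Tmem119, of unknown ligand, was 0.33 and 0.29 higher on the log2 scale, the ADP receptor P2ry13 0.34 and 0.31, and Cx3cr1 0.22 and 0.25. Csf1r was 0.19 and 0.17 higher. The 30 further homeostatic genes, secreted and intracellular, had 26 above 0 in each library and medians of 0.17 and 0.20. Their summed level, led by Cst3, was 112688 CPM in the members and 109891 CPM in the other cells of VEH, and 104060 and 104142 CPM in LEM.

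**Figure D2:**
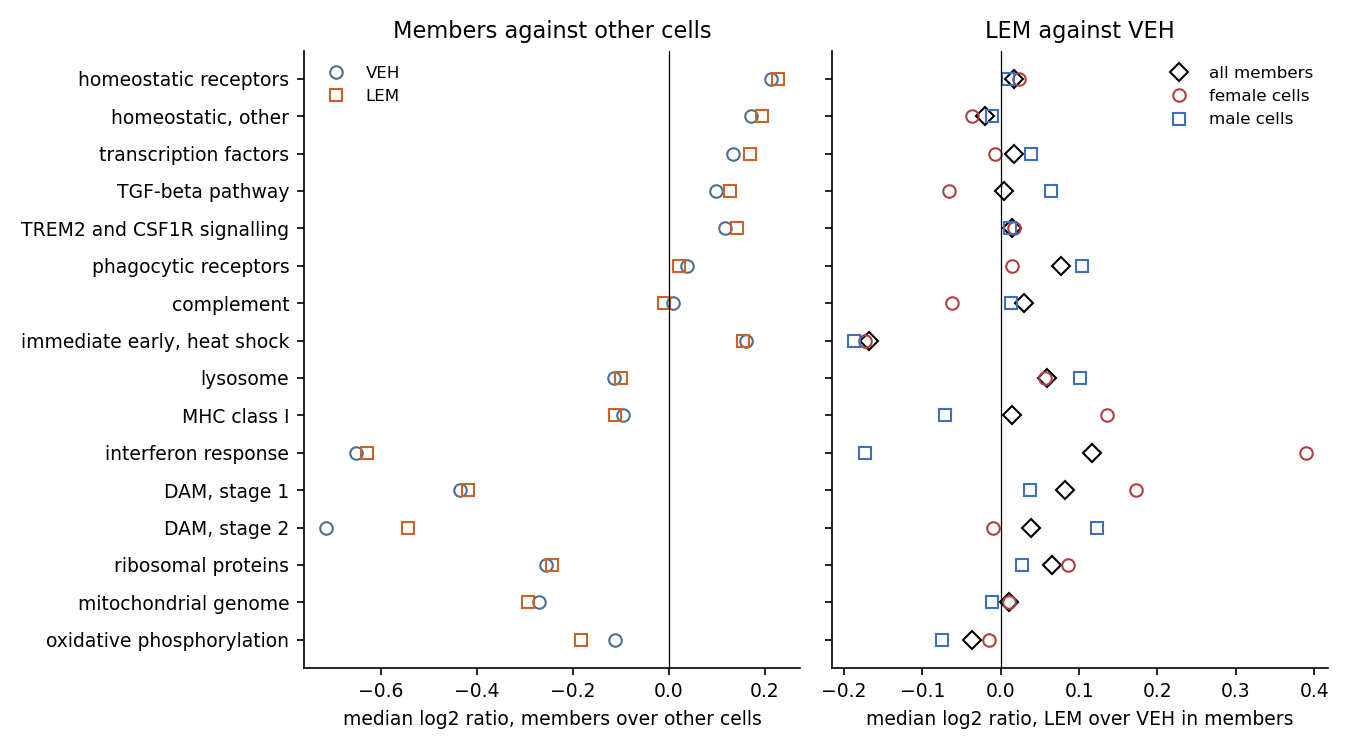
Median log2 ratio of 16 gene groups (y axis): left, members over the other cells of at least 2000 counts within the VEH and LEM libraries, and right, LEM over VEH in all members, in female cells and in male cells. On the left, the 2 homeostatic groups, P2ry12 included, lie between 0.17 and 0.23 and the interferon group at -0.65 and -0.63. Medians on the left include genes that passed only through the other cells, among them 2 interferon and 3 stage 2 DAM genes. Stage 2 DAM lies at -0.71 and -0.54, against -0.54 and -0.45 for its genes detected in members. On the right, the interferon group has the sexes farthest apart, at 0.39 in female and -0.17 in male cells.

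The counts for regulators of the state are per library. Over all genes 64% were above 0 in both libraries at once, with medians of 0.06 and 0.07. The share above 0 in 1 library alone is at least as high. Of 22 detected lineage transcription factors, 19 in VEH and 22 in LEM were above 0 in members over other cells (medians 0.13 and 0.17), with Klf2, a zinc-finger factor of quiescence, at 0.33 and 0.35. Of 14 detected TGF-β pathway genes, 11 and 12 were above 0 (medians 0.10 and 0.13), and of the 16 TREM2 and CSF1R signalling genes detected in members 14 in each (0.13 and 0.15). The growth factor Csf1 of that group passed only through the other cells, at 13.2 CPM in the members against 66.2 CPM in the other cells of VEH, and 14.8 against 53.1 CPM in LEM. Trem2 itself, the lipid receptor required for the full DAM state, was lower in members (-0.30 and -0.25). The genes that led the ranking toward members were modest in size. Rasgrp4, a Ras activator, was 0.65 and 0.59 higher, the orphan receptor Gpr165 0.64 and 0.56, and Siglece, an inhibitory sialic acid receptor, 0.50 and 0.52. The scavenger receptor Stab1 was 0.39 and 0.33 higher.

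Genes of activated states outside the rule were almost all lower in members, beside 21.1% of all genes below 0 in both libraries at once. The share below 0 in 1 library alone is at least as high. The rule excluded cells by counts of DAM and interferon genes, so lower levels of related genes were favoured by the choice of members. These ratios are a description. None of 10 stage 1 DAM genes was above 0 in either library (medians -0.44 and -0.42), and none of the 14 stage 2 genes detected in members (-0.54 and -0.45). Axl, Baiap2l2 and Ifitm3 were detected in 10% of cells only outside the members, so their direction also came with the filter and their levels are given as a description. The TAM receptor Axl was 2.54 and 4.68 CPM in the members against 26.7 and 26.4 CPM in the other cells. Baiap2l2, a membrane-bending protein of activated microglia, was 1.21 against 47.3 CPM in VEH and 0.596 against 28.8 CPM in LEM, a log2 ratio of -5.29 and -5.60. The lysozyme gene Lyz2 was -1.62 and -1.33, and the lysosomal tetraspanin Cd63 was -1.07 and -0.90. Ifitm3, a membrane protein that blocks virus entry, was at -2.53 and -2.33. Of the 19 interferon-response genes outside the rule that were detected in members, 0 in VEH and 1 in LEM was above 0 (medians -0.63 and -0.54). Some housekeeping groups were lower as well. In each library 75 of 76 cytosolic ribosomal protein genes were below 0 (medians -0.26 and -0.24), as were 13 of 13 genes of the mitochondrial genome (-0.27 and -0.29). Proteasome genes were near 0, with 24 of 37 above 0 in VEH and 11 in LEM (medians 0.01 and -0.02). Of 19 clustered histone genes detected in members, 17 and 18 were above 0 (0.23 and 0.25). Of 48 lysosomal genes, 37 and 36 were below 0 (-0.11 and -0.10). Depth differed alongside, with medians of 5786 and 5619 counts in the members against 7143 and 7096 in the other cells, and its part in these ratios was not tested beyond thinning, which gave 28 genes lower in place of 35.

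Cells that failed exactly 1 criterion were compared with members over genes outside the rule, since the rule fixed its own genes, which are left out of the counts and rankings here. Genes could again enter through the group where they were high, as Csf1, Plaur and Ptchd1 did, so the counts of higher genes partly follow from the filter. The cells were deeper than members, with median counts of 6312 to 8477 in VEH and 6369 to 7560 in LEM against 5786 and 5619, and the part of depth in these ratios was not tested. Cells over the Apoe limit alone differed little from members: 0% of 8060 genes were at least 2-fold higher in both libraries and 0.0124% lower, the single gene being the transcription factor Ets1 (-1.10 and -1.91). Among members, Ets1 was higher in female than in male cells (log2 ratio 0.94 in VEH and 3.78 in LEM), and Apoe was lower. Sex was not matched here, so sex and mouse cannot be told apart from the Apoe limit in the Ets1 ratio. Lyz2 was 1.09 and 0.67 higher in the cells over the Apoe limit, the secreted serpin Serpinf1 0.79 and 0.64, and Cd63 0.48 and 0.54. Cells with late DAM counts alone, 1452 and 2209, were also close to members, with 0% called in either direction among 7848 genes. By the smaller of the 2 values and among the genes that passed the filter, Ank was highest (1.14 and 0.97), followed by Ptchd1 (0.76 and 0.91), Csf1 (1.13 and 0.66) and the urokinase receptor Plaur (0.87 and 0.62). Cells over the Ccl3 and Ccl4 limit alone, 883 and 986, had 5 genes (0.0629%) at least 2-fold higher: Csf1 (1.22 and 1.55), Plaur (1.20 and 1.35), Olfr111 (1.11 and 1.42), Gm13889 (1.42 and 1.08) and Ptchd1 (1.08 and 1.19). In 273 and 415 cells that failed the interferon criterion alone, 104 genes (1.3%) were at least 2-fold higher. They were led by Ifit3b, an antiviral tetratricopeptide protein, at 240 CPM in VEH against 1.09 CPM in members. Ifit3b passed the filter only through the interferon cells. Because groups also differed in size, such counts do not rank their distance from members. Cells with counts of Mki67 or Top2a alone numbered 91 and 103 and had 960 genes (10.5%) higher and 0.73% lower. Only 32 and 27 cells failed MHC class II alone, too few to describe.

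Variation among members was measured at equal depth. After each cell was thinned to 2000 counts, the variance divided by the mean, which is 1 under pure counting, had a median of 1.04 in both libraries over 6269 genes, and 147 genes were at 1.5 or more in both. The measure tends toward 1 for genes of low mean, and at 4000 counts per cell 297 genes were at 1.5 or more. The widest spread was in Gm42418 (28.1 in VEH and 28.3 in LEM), an rRNA-like transcript, followed by the secreted protease inhibitor Cst3 (23.4 and 19.5) and Cmss1 (18.0 and 17.8). Cst3 was also among the most abundant genes, with a mean of 126 and 108 counts per thinned cell. Lars2 (7.41 and 6.97), AY036118 (5.05 and 4.62) and Malat1 (4.55 and 4.18) came next. These were followed by the protease Adamts1 (4.09 and 4.17), the immediate early gene Fos (3.8 and 3.61) and the cathepsin Ctsd (3.14 and 3.21). Spread of Cst3 was present within each sex, at 20.7 in female and 22.9 in male cells of VEH and 19.6 and 18.7 in LEM. Among markers that the rule did not read, Cx3cr1 ran in thinned cells from 2 counts at the 5th percentile to 12 at the 95th around a median of 6 in each library, and Tmem119 from 1 to 9 around 4.

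Members of both libraries were chosen by the same rule, which favours likeness in homeostatic and state genes. Of 7366 genes detected in at least 10% of members of either library, 0.489% (36 genes) were at least 1.5-fold higher in LEM and 0.421% (31 genes) at least 1.5-fold lower, and the median log2 ratio over all of them was 0.01. Of 28 homeostatic receptors, 17 were above 0 and 11 below (median 0.02), and 2 were called, both lower (Gp9 and Slc1a3). P2ry12 was 4688 CPM in VEH and 4533 CPM in LEM, a log2 ratio of -0.05 (95% interval -0.06 to -0.04). By sex it was 4592 and 4396 CPM in female cells and 4780 and 4688 CPM in male cells, so LEM was lower in both, less so in male cells. Within each library female cells were lower than male cells. Tmem119 was 2156 and 2311 CPM in female and 2338 and 2317 CPM in male cells of VEH and LEM, opposite in direction. Cx3cr1 was 3160 and 3352 CPM in female and 3433 and 3355 CPM in male cells, again opposite. Csf1r (0.01), Trem2 (0.01), Selplg (-0.01) and Gpr34 (0.03) differed by less than 0.05. The secreted factor Olfml3 was 1665 CPM in VEH and 1934 CPM in LEM (0.22, above 0 in both sexes). Cst3 was 64088 and 55309 CPM (-0.21), mostly through male cells (67415 and 54198 CPM) rather than female cells (59079 and 56299 CPM).

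Some homeostatic genes differed as much between the sexes of the vehicle library as between treatments. Fcrls, a microglial Fc receptor-like protein, was 930 CPM in male VEH cells and between 1278 and 1328 CPM in the other 3 combinations of library and sex, and its pooled log2 ratio of 0.32 came from male cells (0.51) and not from female cells (0.04). Slc1a3, a glutamate transporter, was 594 CPM in female and 1705 CPM in male VEH cells, against 850 and 810 CPM in LEM. Its pooled ratio of -0.61 thus joined 0.52 in female and -1.07 in male cells. Gp9, a platelet-type glycoprotein, was lower in LEM in both sexes, at 60.7 and 32.8 CPM in female and 37.4 and 23.8 CPM in male cells (-0.72). Apoe, the lipid carrier, was limited by the rule and still differed within that limit: 254 CPM in female VEH, 440 in female LEM, 541 in male VEH and 1098 in male LEM cells. Its ratio of LEM to VEH was 0.79 in female and 1.02 in male cells. The ratio of female to male was -1.09 in VEH and -1.32 in LEM. Because the rule capped Apoe in every member, the sizes of these ratios cannot rank sexes against treatments. In the other cells of at least 2000 counts the LEM over VEH ratio of Apoe was 0.30. Those cells include the ones removed by the Apoe limit, so that value also depends on the limit. It cannot show whether the difference was particular to members.

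**Figure D3:**
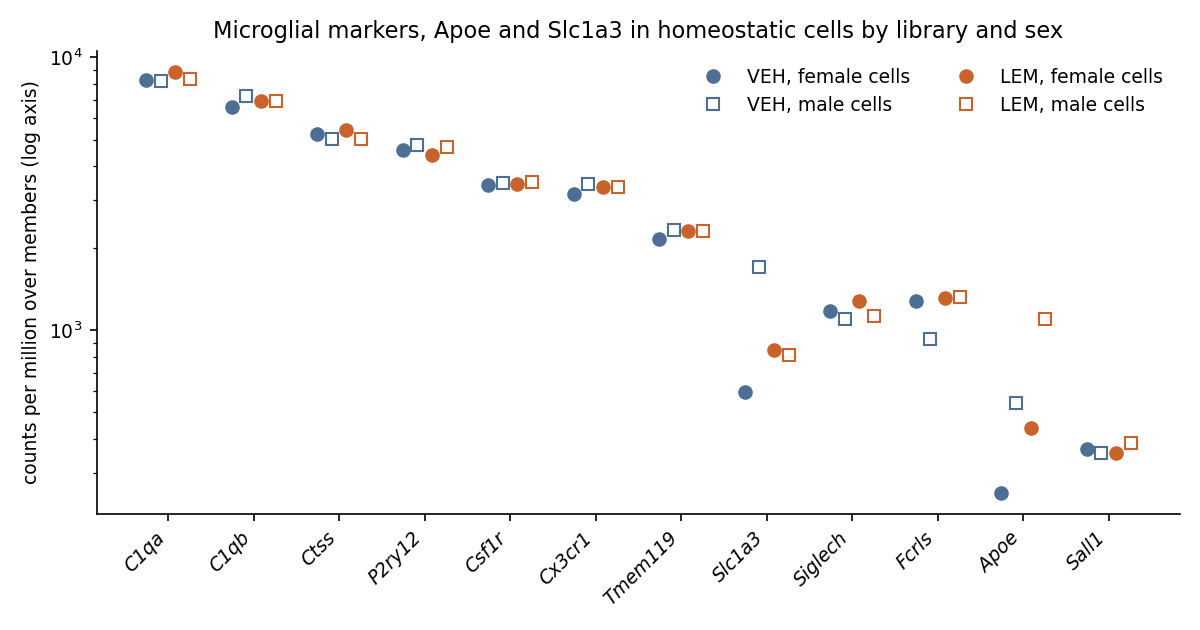
CPM (y axis, log scale) of 10 microglial markers, Apoe and Slc1a3 (x axis) summed over members, for female (filled circles) and male (open squares) cells of the VEH and LEM libraries. Most markers coincide across the 4 values, whereas Slc1a3 runs from 594 to 1705 CPM and Apoe from 254 to 1098 CPM.

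The genes farthest apart between LEM and VEH members were mostly outside the lists of microglial states. Adcy8, a calcium-stimulated adenylyl cyclase, was 21.2 and 4.38 CPM in female and male VEH cells and 32.5 and 54.7 CPM in LEM (2.03). Qpct, a glutaminyl cyclase, was 2.61 CPM in male VEH cells and between 50.8 and 94.2 CPM in the others (1.83). Cdk5rap1 was higher in LEM in both sexes, at 15.7 and 35.6 CPM in female and 11.3 and 34.0 CPM in male cells (1.41), as was the glycolytic enzyme Gapdh, at 207 and 682 and at 301 and 466 CPM (1.14). The histone gene Hist1h4n (1.24), the centrosomal gene Sfi1 (1.11), Ly6e (0.98), the junction scaffold Magi1 (0.97) and Smco4 (0.96) were also among the 10 highest of 1 sign in both sexes. Of these, Ly6e is an interferon-inducible surface protein, at 459 CPM in VEH and 907 CPM in LEM.

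At the other end, Pianp, a ligand of paired immunoglobulin-like receptors, was 36.4 CPM in VEH and 8.22 CPM in LEM (-2.15). Its value was 44.7 and 6.10 CPM in female and 30.6 and 9.72 CPM in male cells, without overlap. The neighbouring β-tubulins Tubb2b (30.5 and 7.05 CPM, -2.11) and Tubb2a (71.6 and 19.2 CPM, -1.90) were lower in both sexes. Cfap77, a cilia and flagella-associated protein, was 378 and 99.4 CPM (-1.93). Ets1 was 48.2 and 23.9 CPM in female cells and 25 and 1.74 CPM in male cells (-1.46). Gm37876 (-1.32), the neuropeptide Agrp (-1.21), the RNA-binding protein Khdrbs3 (-1.16), the ribosomal protein gene Rpl29 (-1.05) and the annexin Anxa3 (-1.04) were also among the 10 lowest. Gapdh, Rpl29, Trim12a, the β-tubulins and clustered histone genes such as Hist1h4n have near-identical copies or paralogs, so their counts are uncertain. In the other cells of at least 2000 counts, which came from the same mice and are no independent check, the ratio was 2.12 for Adcy8, 2.05 for Qpct, 1.43 for Cdk5rap1, 1.25 for Gapdh, 1.20 for Sfi1, 1.08 for Hist1h4n, 0.98 for Magi1, 0.91 for Ly6e and 0.79 for Smco4. For the lower genes it was -2.10 for Pianp, -2.07 for Tubb2b, -1.88 for Cfap77, -1.62 for Tubb2a, -1.54 for Ets1, -1.48 for Gm37876, -1.22 for Khdrbs3, -1.11 for Agrp, -1.02 for Rpl29 and -0.98 for Anxa3.

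Gene groups moved by small amounts. Over all genes, 50.8% were above 0 in female cells and 60.2% in male cells, with 49.2% and 39.8% below. The counts by sex stand beside these shares. Of 19 detected immediate early and heat shock genes, 18 were below 0 in LEM over VEH (median -0.17), beside 43% of all genes, 15 in female cells and 13 in male cells. Fos was 1797 and 1476 CPM (-0.28), Jun 3763 and 3308 CPM (-0.19), Egr1 1293 and 1151 CPM (-0.17) and Klf2 498 and 291 CPM (-0.77), each lower in both sexes. Btg2, an antiproliferative gene, was the exception, at 0.05. Lysosomal genes leaned the other way, with 42 of 48 above 0 (median 0.06) beside 57% of all genes, and with 29 of 48 in female cells and 39 of 48 in male cells. Cd63 was 290 and 382 CPM (0.40), the protease Ctsz 1604 and 1848 CPM (0.20), Ctsd 8230 and 9301 CPM (0.18), Ctsb 1898 and 2032 CPM (0.10) and Cd68 904 and 954 CPM (0.08). Of these, Cd68 did not differ in female cells (988 and 986 CPM). Of 10 stage 1 DAM genes, 8 were above 0 (median 0.08), beside 57% of all genes, 9 in female cells (0.17) and 6 in male cells (0.04). None of the 10 was called, with Lyz2 at 0.38 and the metalloprotease inhibitor Timp2 at -0.19. Of 14 detected stage 2 genes, 9 were above 0 (median 0.04), 6 in female and 8 in male cells, and 2 were called lower, Capg and the chemokine Ccl6, and none higher, beside 0.421% and 0.489% of all genes, with the fatty acid receptor Gpr84 at 0.49 and the actin-capping protein Capg at -0.93.

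Of 27 detected genes in a list of phagocytic receptors, bridging proteins and related genes, 18 were above 0 (median 0.08), near the 57% of all genes above 0. In it 4 were called higher, Colec12, Cd300lf, Fgl2 and S1pr1, beside 0.489% of all genes. The study reports these genes as raised by LEM in the same data, so the count of calls is no independent support. The scavenger receptor Colec12 was 5.15 CPM in female VEH cells and 38.0 in female LEM cells, but 36.6 and 49.4 CPM in male cells (0.86). Cd300lf, a lipid receptor, was 120 and 203 CPM in female and 102 and 149 CPM in male cells (0.68). Fgl2 (0.61) and S1pr1 (0.61), a receptor of the lipid sphingosine 1-phosphate, were also higher in both sexes. The TAM receptor Mertk (-0.01) was level. Of 10 complement genes, 6 were above 0 (median 0.03): C1qa was 0.07 and C1qb -0.00, while the C3a receptor C3ar1 was 0.18 and the C5a receptor C5ar1 -0.34. Of 14 detected TGF-β pathway genes, 7 were above 0 and 7 below (median 0.00). These joined 3 above 0 in female cells (median -0.07) with 12 in male cells (0.06), beside 50.8% and 60.2% of all genes. The highest was Nrros, a protein that holds latent TGF-β, at 258 and 312 CPM (0.28). Of 22 transcription factors, 12 were above 0 (median 0.02), with Spi1 at 0.05, Sall1 at 0.05 and Mef2c at -0.09. Ets1 (-1.46) and Klf2 (-0.77) were called lower and none was called higher, beside 0.421% and 0.489% of all genes. Of 14 cytokine and chemokine genes, Tnfsf8 was called higher (12.8 and 23.2 CPM, 0.86) and Ccl6 called lower (172 and 98.5 CPM, -0.80), each in both sexes, beside 0.489% of all genes called higher and 0.421% lower.

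Interferon-response genes leaned in opposite directions in the sexes, with calls in female cells and hardly any in male cells. In female cells 19 of 19 detected genes were above 0 in LEM over VEH (median 0.39), beside 50.8% of all genes above 0 and 49.2% below, and 7 were at least 1.5-fold higher, beside 0.774%. In male cells 16 of 19 were below 0 (median -0.17), beside 39.8% of all genes below 0 and 60.2% above. Of these 19, 1 was at least 1.5-fold higher and 0 were at least 1.5-fold lower, beside 0.801% of all genes higher and 0.584% lower. Ifi27l2a, an interferon-induced mitochondrial protein, was 29.5 and 85.2 CPM in female cells of VEH and LEM, and 37.9 and 25.8 CPM in male cells. Ifi44 was 11.8 and 29.7 CPM in female and 18.2 and 14.3 CPM in male cells. The male exceptions were Ly6e, higher in LEM in both sexes (0.63 and 1.26), Phf11b (0.10 in male cells) and Ifi35 (0.01). MHC class I genes followed the same split at smaller size: 16 of 16 were above 0 in female cells (median 0.14) and 13 of 16 below in male cells (-0.07). H2-K1, an antigen-presenting heavy chain, was 289 and 426 CPM in female and 344 and 319 CPM in male cells, and the peptide transporter Tap1 25.5 and 36.5 CPM in female and 32.9 and 27.3 CPM in male cells. Within VEH, 14 of 19 interferon genes were lower in female than in male cells (median -0.15), and within LEM 18 of 19 were higher in female cells (0.33), beside 51.5% of all genes above 0 in VEH and 40.4% in LEM. The rule had capped 7 interferon genes at fewer than 3 counts together in each cell.

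**Figure D4:**
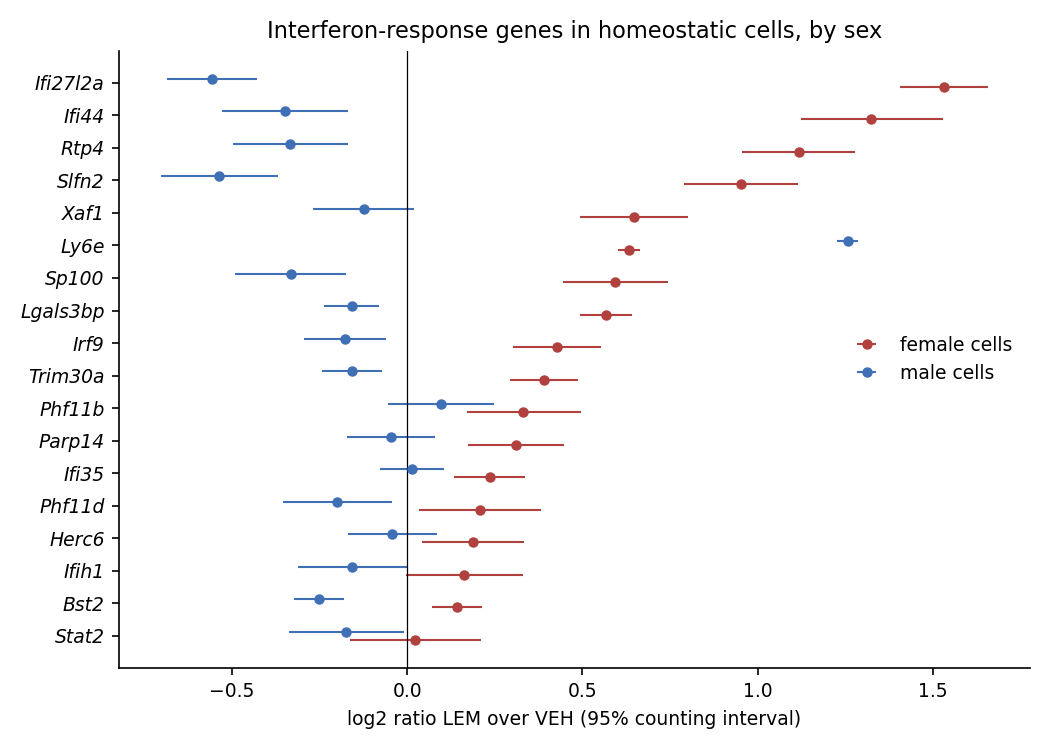
Log2 ratio of LEM over VEH (x axis, with 95% counting intervals) for 18 detected interferon-response genes outside the rule (y axis) in female and male members. All 18 female values lie above 0, up to 1.53 for Ifi27l2a, whereas 15 male values lie below 0 and Ly6e reaches 1.26.

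Differences between sexes under 1 treatment were similar in number to differences between treatments. Female and male members differed at least 1.5-fold in 1.41% of genes within VEH (104 genes, 0.801% higher and 0.611% lower in female cells) and in 0.964% within LEM (71 genes), Xist and Y-linked genes left out, whereas LEM and VEH differed in 0.91% (67 genes) when sexes were pooled, 1.45% in female and 1.38% in male cells. Genes at least 1.5-fold apart in both sexes in the same direction were 13 higher (0.176%) and 17 lower (0.231%). Trim12a, a TRIM protein of the interferon response, was 0.319 CPM (7 counts) in female VEH cells, against 17 CPM in male VEH cells and 31.3 and 14.3 CPM in female and male LEM cells. Ddit4, a stress-induced inhibitor of mTOR, was lower in female cells of both libraries (-1.53 and -1.38). In 11 genes (0.149%) LEM and VEH were at least 1.5-fold apart in opposite directions in the sexes. Ccdc85a, a coiled-coil protein, was the widest, at 4.88 and 52.7 CPM in female and 165 and 44.0 CPM in male cells of VEH and LEM.

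**Figure D5:**
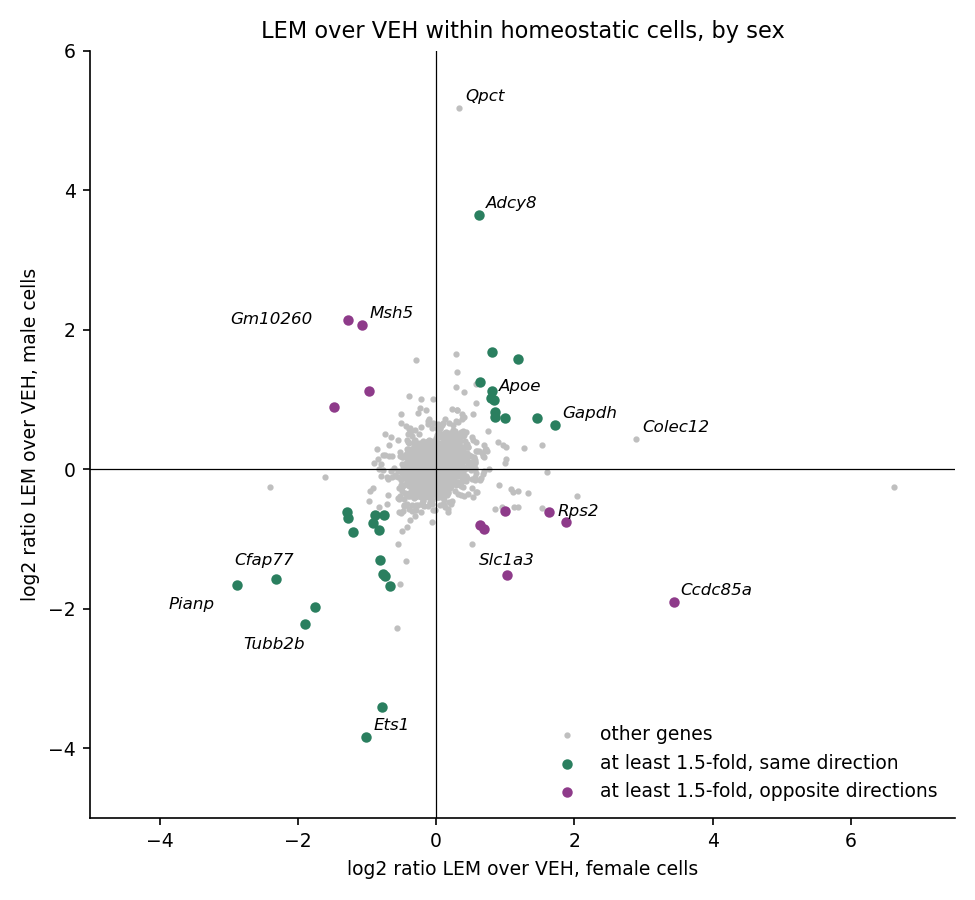
Log2 ratio of LEM over VEH in female members (x axis) against male members (y axis) for the genes tested that had counts in all 4 combinations of library and sex; green points are at least 1.5-fold apart in the same direction in both sexes, purple points in opposite directions. Qpct lies near the vertical axis at 5.17 in male cells, and Ccdc85a at 3.44 in female and -1.91 in male cells.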

How the data were processed

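Sequencing libraries were made with the 10x 5′ chemistry. According to the processing notes and the study's methods, the authors used Cell Ranger 8.0.0 and the mm10 transcriptome, and removed cells of few genes, very many counts or a high mitochondrial share. The deposited table held unnormalised counts, whole numbers for 32285 genes in 42766 cells, fewer cells than the study's text gives. SoupX, which subtracts free RNA, is named in the methods, and whether its correction is in the values is not known. Counts were summed over cells and scaled to counts per 1000000 (CPM). Shares have exact Clopper-Pearson intervals, and log2 ratios have exact conditional binomial intervals at 95%. Both cover counting error only, because each treatment had 1 library. Genes entered a comparison when detected in at least 10% of cells of 1 group. A call meant at least 1.5-fold between LEM and VEH, and a log2 ratio of at least 1 in size in both libraries between members and other cells. Variation was computed after thinning each cell to 2000 counts, for genes in at least 5% of members. No doublet caller was run, and droplets with transcripts of both sexes were left out as an alternative. Sex was read from 1 or more counts of Xist or of the Y-linked genes. Genes were placed with GENCODE on GRCm38, and promoters came from RefSeq. The ratio and variation steps were tested on simulated data. Named genes were those of the rule and of the gene lists, with the 10 highest and 10 lowest ratios of LEM to VEH that had 1 sign in both sexes, the 15 highest and lowest of members to other cells, and the 10 of widest variation. Trim12a, Ddit4 and the genes opposite in the sexes were named after their values were seen, where the lists did not hold them. A few genes that these rules name are not reported here and are left out of the plots. Members and lists were chosen with earlier results of these data known. Python 3.11.15, numpy 2.4.6, scipy 1.17.1 and pandas 2.3.3 were used.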

Additional observations from a re-analysis of the deposited data

Results flagged for a closer look

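In 11 genes LEM members were at least 1.5-fold above VEH members in 1 sex and at least 1.5-fold below in the other. Each value below is the log2 ratio of LEM over VEH in female cells minus that in male cells. With 1 pool of mice per sex and library, the difference was not tested. Ccdc85a had the widest difference, 5.34. The ratio was higher in female cells for the antigen-loading chaperones H2-DMa (2.54) and H2-DMb1 (1.43), the ribonuclease Rnaset2b (2.65), the ribosomal protein gene Rps2 (2.26), the protein C receptor Procr (1.55) and Gm16867 (1.59). It was lower in female cells for Gm10260 (-3.41), the meiotic mismatch-repair gene Msh5 (-3.13), the chemokine receptor Ccr6 (-2.37) and Fam129a (-2.09). Rps2 has near-identical copies elsewhere in the genome, so its count is uncertain. For Rps2 the values were 155 and 483 CPM in female and 418 and 272 CPM in male cells of VEH and LEM. The MHC class II chaperone H2-DMa was 40.4 and 81.9 CPM in female and 111 and 38.6 CPM in male cells.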

How the results depend on the processing

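The smaller share of homeostatic cells in LEM kept its direction under all 8 alternatives. The log2 ratio was -0.13 with the rule on counts per 6000, -0.36 with fewer than 10 counts of Apoe, -0.054 with no limit on Apoe, -0.082 in female and -0.27 in male cells. With no detection minimum, members against other cells gave 41 genes higher and 896 lower, and LEM against VEH gave 751 higher and 654 lower, since sparse genes entered. LEM against VEH gave 57 higher and 50 lower in female cells and 59 higher and 43 lower in male cells. Thinning to 4000 counts gave 297 genes of wide variation, and 9 of the 10 widest were shared. Of the 56 single genes followed under the alternatives, called genes that changed sign were Slc1a3 (0.52 in female cells), Ifi27l2a (-0.56 in male cells), Trim12a (-0.26 in male cells) and Ccdc85a (3.44 in female cells, 0.76 with sexes weighted equally), and the interferon median was -0.17 in male cells. Camk2b, a called gene outside those 56, was -0.29 in female and 1.56 in male cells. The cause was not tested. Under the other scalings the median of all genes stayed between 0.00 and 0.02. Of the 616 values of these genes, 410 stayed within the counting interval. No paired analysis was possible because each treatment had 1 library and the labels give no replicate numbers. Intervals cover counting error only, and variation between mice was not measured beyond the 2 sexes.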

Other observations

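Clustered histone genes leaned by sex, in opposite directions in LEM and VEH. Within LEM, 19 of 19 detected genes were lower in female than in male members (median -0.34), beside 59.6% of all genes, whereas within VEH 14 of 19 were higher (0.12), beside 51.5%. Hist1h2ac was 24.0 CPM in female and 48.8 CPM in male LEM cells, against 42.4 and 48.9 CPM in VEH. Among 9 detected clock genes, 8 were lower in female members of LEM (median -0.43), beside the same 59.6%, and 4 in VEH, beside 48.5%. Dbp, a clock output factor, was 14.6 CPM in female and 24.0 CPM in male LEM cells, against 16.9 and 11.9 CPM in VEH. Of 11 detected glucocorticoid-response genes, 8 were below 0 in LEM over VEH (median -0.10), beside 43% of all genes, with Mt1 highest (0.46) and Errfi1 lowest (-0.51).

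Some genes called between LEM and VEH members were neighbours. Of 67 such genes, 16 had another within 1 Mb, and some of these overlapped, such as Gm37876 and Lrba. The same count was not made for other genes tested, so 16 cannot be called many or few. Tubb2a (chr13:34074274-34078007) and Tubb2b (chr13:34126748-34130466) were both lower, whereas Pianp (chr6:124996694-125003096) was lower and Gapdh (chr6:125161715-125166467) higher. Of the 11 genes opposite in the sexes, 6 (54.5%) were on chromosome 17, which held 5.13% of all genes tested, 4.48% of the 67 called genes, and 17.3% and 12.7% of the genes called between female and male members of VEH and LEM. They were Rnaset2b, Ccr6, Rps2, H2-DMa, H2-DMb1 and Msh5, the last 3 within the MHC region. These counts were not tested.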
